A study of Mus musculus with 4 samples.

Results

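The 9 genes described here trace the oligodendrocyte lineage: 5 mark its onset (Olig1, Olig2, Pdgfra, Cspg4 and Lhfpl3) and 2 encode myelin proteins (Mbp and Mog). The other 2, Gpr17 and Bcas1, are grouped here as committed precursor genes, although Bcas1 is also known from early myelinating oligodendrocytes. All 9 were chosen by name and were found by their Ensembl identifiers among the 45706 genes of the deposited count table. The 4 RNA libraries were labelled as medial basal radial glia, neural progenitors of the neocortex whose cell bodies lie away from the ventricle, from mice at E18.5. All 4 belong to a single group of strain C57BL/6JOlaHsd and genotype Tubb-GFP/+, a reporter carried by every library, and DiI, a lipophilic membrane dye, stands in every library name. The labels do not say how cells were sorted or whether animals were pooled. There is thus no control group, and the comparisons run between genes within libraries and between each gene and a fixed level. Nothing says that the libraries came from separate animals, so errors and p-values cover the spread among the 4 libraries alone, and that spread may be technical.

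Oligodendrocytes make the myelin sheaths of the central nervous system. Their precursors are specified by the basic helix-loop-helix factors Olig1 and Olig2, divide under platelet-derived growth factor acting on the receptor PDGFRA, and carry the proteoglycan NG2 encoded by Cspg4. In the mouse neocortex precursors spread before birth, whereas compact myelin forms only after birth, so onset genes and myelin genes stand for an early and a late step.

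Library totals ran from 26540656 to 34837657 counts. The labelled cell type was read against fixed markers: all 7 radial glia genes, all 4 basal radial glia genes, all 3 intermediate progenitor genes and all 4 neuron genes lay above 1 TPM (a transcript abundance corrected for library size and gene length, here the length of the merged exons). Their summed levels ran from 4727 to 5712 TPM, 442 to 615 TPM, 429 to 474 TPM and 8602 to 9629 TPM across libraries. Hopx, the gene named in the series title, was at 3.03 ± 0.414 TPM and the progenitor factor Sox2 at 30.1 ± 4.10 TPM (SD, n = 4). The Hopx value is uncertain, since 27.2% of its exonic bases lie opposite Hopxos. All 4 astrocyte genes (581 to 711 TPM summed) and all 3 microglia genes (14.04 to 29.5 TPM summed) were above 1 TPM as well, and so were 75.7% of the protein-coding genes tested, so these counts do not single out the labelled cell type. Neuronal RNA was thus abundant in the libraries, and in such bulk samples fewer cells of a type and less RNA per cell cannot be told apart.

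Olig1 and Olig2 are paralogs that lie 41094 bases apart on chromosome 16 of GRCm38. Their most similar ungapped coding stretch covers 87 bases, bases 272 to 358 of the Olig1 coding sequence and 314 to 400 of the Olig2 coding sequence, counted from the first coding base. It is shown because near-identical copies could trade reads. Capitals mark the 73 bases (83.9%) at which the genes are identical, and both sequences are from the GENCODE M21 transcripts, + strand, 5′ to 3′.
Olig1: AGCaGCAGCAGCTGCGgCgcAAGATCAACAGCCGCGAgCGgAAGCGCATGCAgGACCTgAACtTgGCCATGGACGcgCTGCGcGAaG
Olig2: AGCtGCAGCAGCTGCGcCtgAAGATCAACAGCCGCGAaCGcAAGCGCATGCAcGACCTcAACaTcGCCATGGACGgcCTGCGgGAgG
The longest run of identical bases between the 2 transcripts was 17. No stretch of 50 bases of Olig2, Cspg4 or Mog occurred in a transcript of another gene on either strand. The share that did was 16.1% for Lhfpl3, 8.98% for Bcas1, 4.93% for Pdgfra, 1.87% for Gpr17 and 0.345% for Mbp. For Olig1, 5.11% of such stretches occurred in Gm15966, an antisense gene without a single count in any library.

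All 9 genes were transcribed at a low to middle level, between 3.54 and 16.4 TPM on average. All 9 lay above 1 TPM by edgeR's quasi-likelihood test, with adjusted p from 4.04e-14 (Pdgfra) to 9.36e-08 (Bcas1), but so did 65.9% of all 20991 genes tested and 75.7% of the 15401 protein-coding genes tested. Being above 1 TPM thus does not set these genes apart. In log2(TPM + 1), the median over the 9 was 3.41 ± 0.16 (SD, n = 4), beside 3.31 ± 0.0242 over the protein-coding genes tested and 2.53 ± 0.0529 over all genes tested. By mean TPM they stood between percentile 34.4 (Bcas1) and percentile 61.7 (Olig1) of the protein-coding genes tested.

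**Figure D1:**
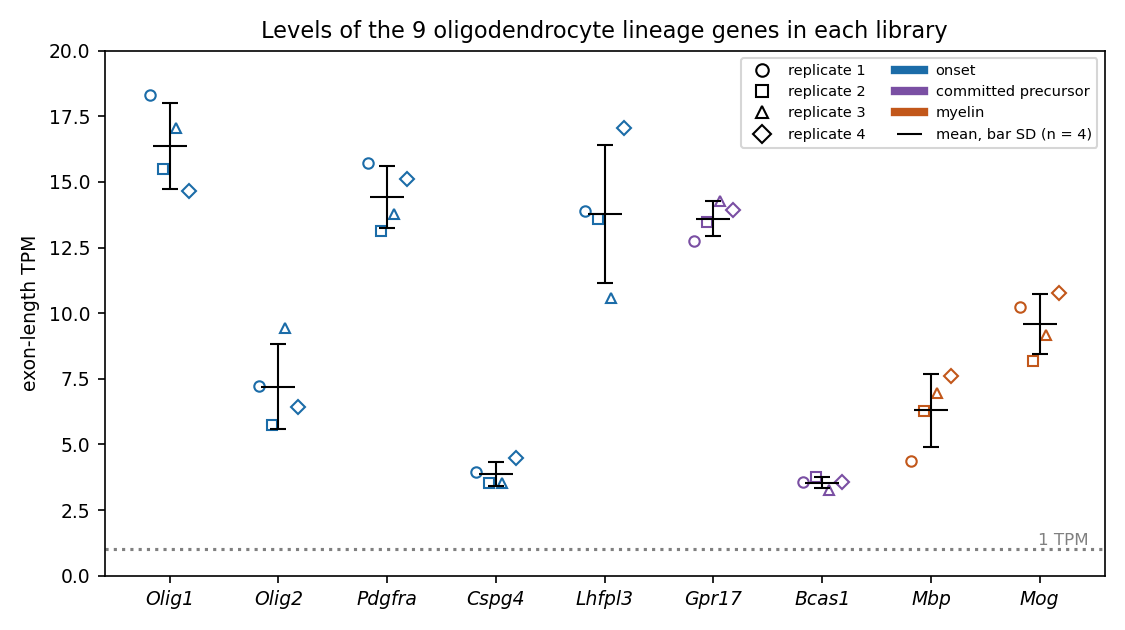
Exon-length TPM of the 9 genes (vertical axis, from 0) in each of the 4 libraries, with symbols for replicates, colours for the role of the gene, horizontal marks for the mean and bars for the SD (n = 4). Olig1, Pdgfra, Lhfpl3 and Gpr17 average between 13.6 and 16.4 TPM, Mog 9.58 TPM, Olig2 and Mbp 7.20 and 6.30 TPM, and Cspg4 and Bcas1 3.87 and 3.54 TPM.

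Among the onset genes, the transcription factor genes differed in level. Olig1 (ENSMUSG00000046160; GRCm38 chromosome 16, 91269772 to 91271933), a single-exon gene that works with Olig2 in precursor maturation, had 354, 377, 354 and 261 counts in replicates 1 to 4, or 18.3, 15.5, 17.0 and 14.7 TPM. It was the highest of the 9 genes, at 16.4 ± 1.62 TPM (SD, n = 4). Olig2 (ENSMUSG00000039830; chromosome 16, 91225457 to 91228677), the factor required for oligodendrocyte specification, had 164, 163, 229 and 134 counts, or 7.24, 5.72, 9.42 and 6.43 TPM, with a mean of 7.20 ± 1.6 TPM. Replicate 3 was its highest library and replicate 2 its lowest. The 2 genes did not overlap: Olig1 exceeded Olig2 in 4 of 4 libraries, by 1.20 ± 0.254 on the log2 scale of TPM (SD, n = 4), a 2.30-fold ratio.

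Pdgfra (ENSMUSG00000029231; chromosome 5, 75152292 to 75198215), the receptor that makes precursors respond to growth factor, held the most reads of the 9 genes, with 1411, 1483, 1327 and 1247 counts. Per length this came to 15.7, 13.1, 13.8 and 15.1 TPM, a mean of 14.4 ± 1.19 TPM (SD, n = 4). Cspg4 (ENSMUSG00000032911; chromosome 9, 56865033 to 56899870) had 421, 474, 405 and 441 counts but the longest merged exons, 11931 bases, and so stood at 3.94, 3.53, 3.53 and 4.49 TPM. Both genes were lowest in replicate 2, and Pdgfra exceeded Cspg4 3.74-fold, in 4 of 4 libraries. Lhfpl3 (ENSMUSG00000106379; chromosome 5, 22746059 to 23275597), a tetraspan membrane protein gene used as a precursor marker, had 399, 491, 327 and 451 counts, or 13.9, 13.6, 10.6 and 17.0 TPM. Its high and low libraries, replicates 4 and 3, differed 1.61-fold, more than the exact Poisson 95% intervals of the 2 libraries allow (15.5 to 18.7 TPM and 9.48 to 11.8 TPM). The Lhfpl3 value is uncertain, since 567 of its 3213 exonic bases (17.6%) lie opposite A930003O13Rik, which had 24 to 48 counts per library, and the counting is not stated to use strand.

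The committed precursor genes were the steadiest. Gpr17 (ENSMUSG00000052229; chromosome 18, 31942997 to 31949636), a G protein-coupled receptor that is switched on in precursors about to differentiate, had 592, 788, 712 and 597 counts, or 12.7, 13.5, 14.3 and 13.9 TPM. Bcas1 (ENSMUSG00000013523; chromosome 2, 170346991 to 170427845), a marker of early myelinating oligodendrocytes, had 120, 160, 119 and 111 counts, or 3.55, 3.77, 3.28 and 3.57 TPM. The means were 13.6 ± 0.666 and 3.54 ± 0.199 TPM (SD, n = 4). The coefficient of variation over libraries was 4.89% for Gpr17 and 5.61% for Bcas1, where counting error alone gives 3.88% and 8.92%. Antisense genes shared 3.62% of the Gpr17 exons (Lims2, 48 to 104 counts) and 12.6% of the Bcas1 exons (Bcas1os1 and Bcas1os2, 0 to 3 counts each).

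Both myelin genes had reads in every library. Mog (ENSMUSG00000076439; chromosome 17, 37010743 to 37023398), which encodes a glycoprotein of the outermost myelin surface and is known as a late marker, had 156, 157, 150 and 151 counts, or 10.2, 8.19, 9.16 and 10.8 TPM, a mean of 9.58 ± 1.14 TPM (SD, n = 4). Mbp (ENSMUSG00000041607; chromosome 18, 82475146 to 82585637), the gene of myelin basic protein, had 332, 597, 567 and 530 counts, or 4.38, 6.26, 6.97 and 7.60 TPM, a mean of 6.30 ± 1.39 TPM. Mbp was lowest in replicate 1, whose Poisson interval of 3.92 to 4.88 TPM lay below those of the other libraries. Its coefficient of variation was 22.1%, against 4.47% from counting error, the largest excess of the 9 genes (4.94-fold; Lhfpl3 was next at 3.88-fold).

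The Mbp locus also makes golli transcripts, which begin upstream of the classic myelin basic protein start and are known from neurons and other non-myelinating cells. In GENCODE M21, 4 of the 16 annotated Mbp transcripts begin at the upstream start, and 5878 of the 8469 merged exonic bases (69.4%) belong to those 4 alone. Gene-level counts do not separate the 2 kinds. If every Mbp read came from the transcripts of the downstream starts, whose exons cover 2591 bases, its level would be 20.6 ± 4.55 TPM (SD, n = 4) and the highest of the 9. The merged-exon value of 6.30 TPM and this value mark how far the choice of exons moves Mbp.

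In order of mean level the genes ran Olig1, Pdgfra, Lhfpl3, Gpr17, Mog, Olig2, Mbp, Cspg4 and Bcas1. Of the 8 steps between neighbours, 2 were larger than their own SD and of a single sign in 4 of 4 libraries: Gpr17 over Mog, by 0.51 ± 0.197 (log2 ratio, SD, n = 4), and Mbp over Cspg4, by 0.68 ± 0.364. The first 4 genes were thus not separable as neighbours, nor were Mog, Olig2 and Mbp, nor Cspg4 and Bcas1. Among genes that are not neighbours, Olig1 lay above Gpr17 by 0.26 ± 0.19 and Mog above Mbp by 0.63 ± 0.401, each in 4 of 4 libraries by merged exons; Mog minus Mbp was -0.17 in log2(TPM + 1) with the longest transcript as length. No library was high or low for all genes. Replicate 4 was the highest for Cspg4, Lhfpl3, Mbp and Mog and replicate 2 the lowest for Olig2, Pdgfra, Cspg4 and Mog.

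**Figure D2:**
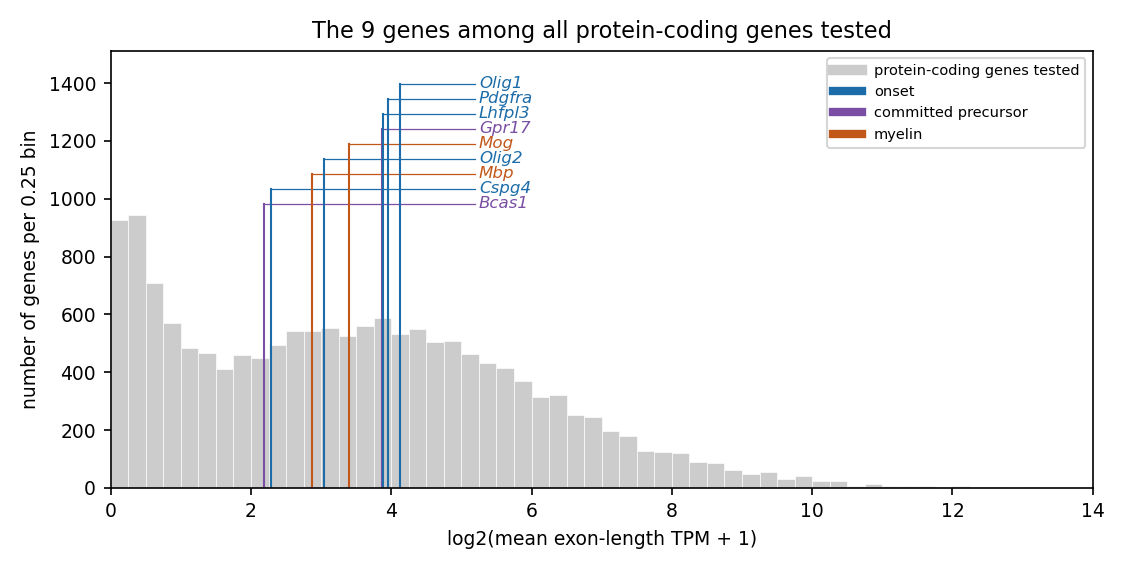
Number of protein-coding genes tested (vertical axis) by log2 of mean exon-length TPM plus 1 (horizontal axis, bins of 0.25), with vertical lines at the 9 genes, coloured by role. The 9 genes lie in the middle of the distribution, between percentiles 34.4 and 61.7.

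Onset genes stood above myelin genes in the median. In log2(TPM + 1), the onset median was 3.81 ± 0.19 and the myelin median 3.12 ± 0.16 (SD, n = 4), equal to 13.0 and 7.71 TPM. Onset minus myelin was 0.94, 0.79, 0.37 and 0.64 in replicates 1 to 4, a mean of 0.68 ± 0.244, positive in 4 of 4 libraries. It was 0.35 with the longest transcript as length, 1.65 on the deposited TPM and 0.32 with the mean of the genes in place of the median. Committed precursor genes had a median of 3.02 ± 0.0325, and their difference from the myelin genes, -0.097 ± 0.15, was positive in 2 of 4 libraries. The onset difference also depended on the exons counted for Mbp: with the downstream-start length, an alternative chosen after seeing the data, it was -0.096 ± 0.257 and positive in 2 of 4 libraries. No p-value is given for these group differences, since the genes were chosen with results of these data known.

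Gene by gene, the onset genes did not act as a block against the myelin genes. Against Mbp in the same library, limma's one-sample test called 5 of the other 8 genes higher (Olig1, Pdgfra, Lhfpl3, Gpr17 and Mog) and 2 lower (Cspg4 and Bcas1), where it called 39.8% of all genes higher and 48.5% lower. Against Mog it called 4 higher (Olig1, Pdgfra, Lhfpl3 and Gpr17) and 4 lower (Olig2, Cspg4, Bcas1 and Mbp), where it called 35.2% and 57.8% of all genes. The spread of Mbp or Mog itself enters every one of these differences, so the variance that limma pools over genes makes its p-values too small. Each gene's own variance, in a one-sample t test without pooling, was an alternative chosen after seeing the data. It called 37.8% of all genes higher and 44.7% lower than Mbp, and 34% higher and 55.5% lower than Mog. Mog against Mbp (t test adjusted p = 0.0589), Olig2 against Mog (t test adjusted p = 0.0893) and Mbp against Mog (t test adjusted p = 0.0549) were then not called. The other calls stood.

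By each gene's own variance, the smallest p-values were those of Cspg4 and Pdgfra against Mog. Pdgfra minus Mog was 0.58, 0.62, 0.54 and 0.45 on the log2(TPM + 1) scale in replicates 1 to 4, a mean of 0.55 (limma adjusted p = 0.000175; 0.00126 with its own variance). Cspg4 minus Mog was -1.18, -1.02, -1.16 and -1.10, a mean of -1.12 (limma adjusted p = 2.42e-06; 0.000387 with its own variance). Olig1 exceeded Mbp by 1.84, 1.18, 1.18 and 0.86, a mean of 1.27 (limma adjusted p = 2.17e-10; 0.0126 with its own variance), with the largest difference in replicate 1, where Mbp was lowest. Olig2 minus Mbp was 0.62, -0.11, 0.39 and -0.21, of both signs, and was not called (limma adjusted p = 0.454).

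**Figure D3:**
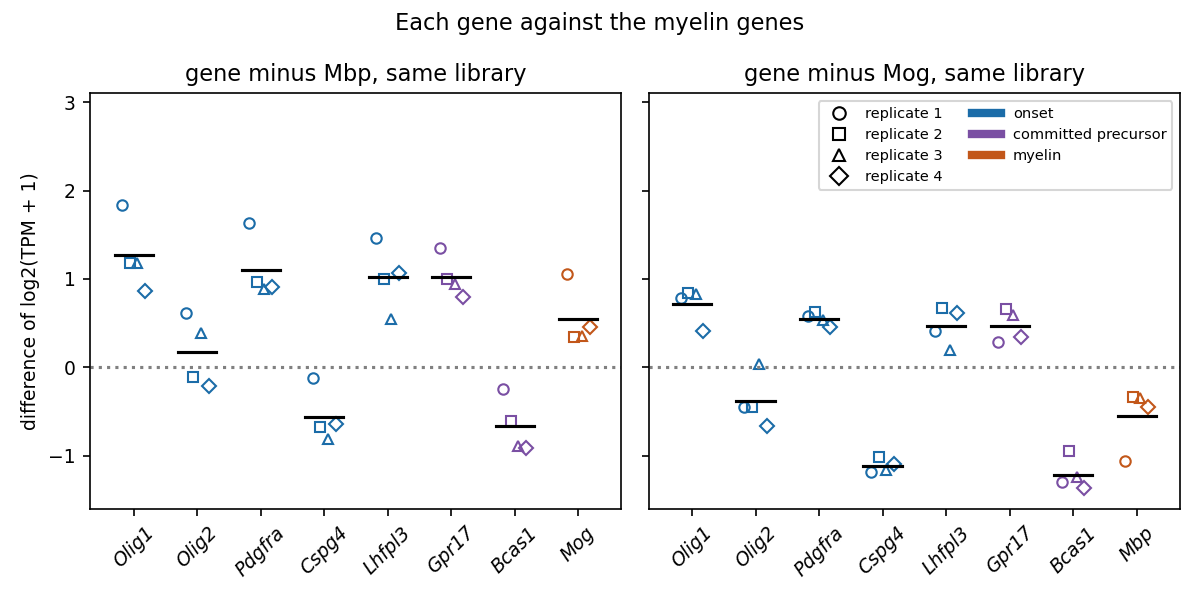
Difference of log2(TPM + 1) between each gene and Mbp (left) or Mog (right) in the same library (vertical axis), with symbols for replicates, colours for role and black bars for the mean of 4 libraries. Olig1, Pdgfra, Lhfpl3 and Gpr17 lie above 0 in every library on both sides, Cspg4 and Bcas1 below 0 in every library, and Olig2 on both sides of 0.

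The order depended on the length used. With the longest transcript as length, Pdgfra (16.03 ± 1.31 TPM, SD, n = 4) stood above Olig1 (12.4 ± 1.22 TPM) and Mbp (8.42 ± 1.87 TPM) above Mog (7.25 ± 0.867 TPM). The longest Mbp transcript, of 4797 bases, begins at the upstream start, and the longest from a downstream start has 2070 bases. This Mbp value is thus not one for the classic transcripts, and the onset difference with the longest transcript used the same length. The deposited TPM divides by the whole gene span, introns included. In replicate 1, a constant times the span gave the ratio of count to value, to within 0.01 in log2, for 6654 of 7017 genes (94.8%). Those 7017 genes lay above a floor of count and of deposited value. Cspg4, Lhfpl3, Bcas1, Mbp and Mog lay below that floor and were not among them. On that scale Olig1 was at 57.5 ± 5.66 TPM and Gpr17 at 37.4 ± 1.87 TPM, and Lhfpl3, whose span is 529539 bases, was at 0.293 ± 0.056 TPM. Lhfpl3 and Bcas1 (0.581 ± 0.0324 TPM) were then called below 1 TPM (limma adjusted p = 9.05e-06 and 0.000183), leaving 7 of 9 genes above it.

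**Figure D4:**
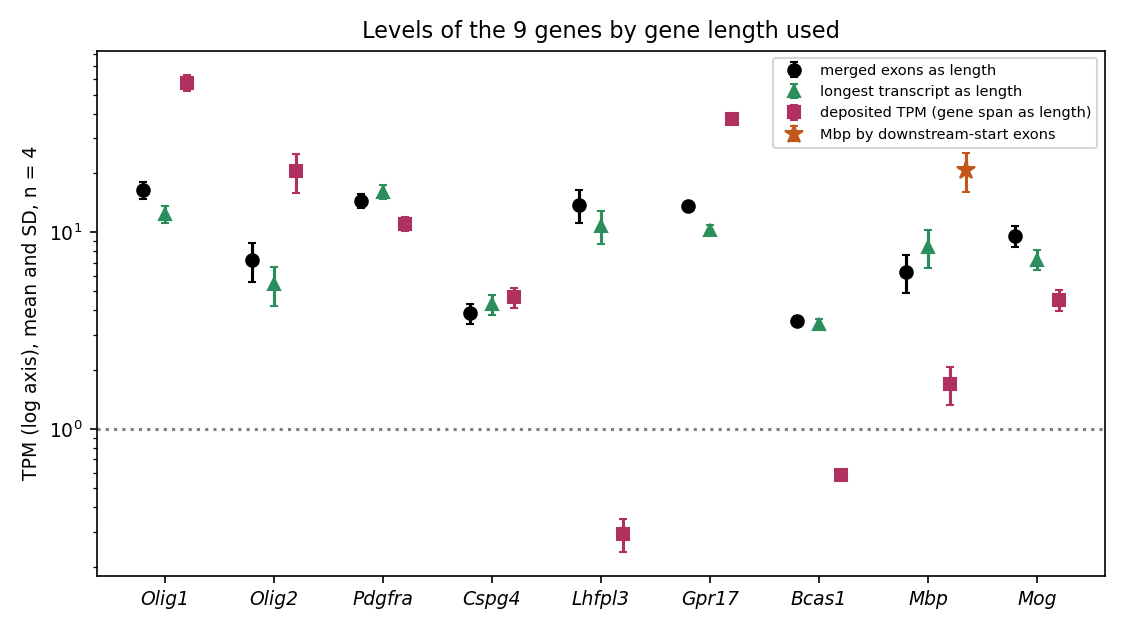
TPM of the 9 genes (vertical log axis, mean and SD, n = 4) by merged exons, by longest transcript and as deposited, plus Mbp by its downstream-start exons. Lhfpl3 moves from 13.8 TPM by merged exons to 0.293 TPM as deposited, and Mbp from 6.30 TPM by merged exons to 20.6 TPM by downstream-start exons.

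Of 17 lineage transcription factors, 12 lay above 1 TPM, 3 below it and 1 was not called by edgeR, and Nkx6-1 had too few counts to test. Over all genes tested, 65.9% lay above 1 TPM and 12.1% below it. Over the protein-coding genes tested, the matching class for this list, 75.7% lay above and 11.5% below. The count of 12 is thus near the background. The list's median was 3.25 ± 0.0704 (log2(TPM + 1), SD, n = 4). The highest were Id2, an inhibitor of basic helix-loop-helix factors, at 1640 ± 77.5 TPM, Sox9, a glial fate factor shared with radial glia and astrocytes, at 131 ± 19.8 TPM, and Tcf7l2, a Wnt effector also used in many other cells, at 36.2 ± 3.16 TPM. Sox10, which marks the lineage from precursor to myelinating cell, had 178, 195, 172 and 124 counts and was at 6.52, 5.68, 5.87 and 4.93 TPM in replicates 1 to 4. Nkx2-2, a factor of the switch to differentiation, had 16, 22, 5 and 8 counts, or 0.455 ± 0.236 TPM (edgeR adjusted p = 0.0487, below 1 TPM). Myrf, the master regulator of myelin genes, was at 0.67, 0.66, 0.60 and 0.75 TPM, below 1 TPM in every library (edgeR adjusted p = 0.0228).

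The growth factor side of the pathway was present too. Pdgfa, the ligand of PDGFRA, was at 26.2, 28.0, 28.4 and 26.7 TPM in replicates 1 to 4, higher than Pdgfra in every library. The Pdgfa value is uncertain, since 26.1% of its exonic bases lie opposite another gene. Of the other PDGF genes in the list of 5, Pdgfrb (6.38 ± 1.96 TPM) and the ligand gene Pdgfc (3.44 ± 0.465 TPM) were above 1 TPM. Pdgfb (0.805 ± 0.108 TPM) was not called (edgeR adjusted p = 0.261) and Pdgfd (0.282 ± 0.195 TPM) was below 1 TPM. Among all genes tested, 65.9% were above 1 TPM and 12.1% below it, and among protein-coding genes 75.7% and 11.5%.

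Of 14 further precursor genes, 10 were above 1 TPM, 1 was below and 3 were not called. This is again near the 65.9% above and 12.1% below over all genes, and the 75.7% and 11.5% over protein-coding genes. The median of the list was 3.66 ± 0.0778 (log2(TPM + 1), SD, n = 4). The highest were Rlbp1, a retinoid-binding protein gene, at 494 ± 26.4 TPM, the receptor phosphatase gene Ptprz1 at 104 ± 8.59 TPM and the endocytic adaptor gene Epn2 at 62.9 ± 1.93 TPM. Ptprz1 is also a radial glia gene. The lowest was Neu4, a sialidase gene, with 0, 15, 0 and 9 counts (edgeR adjusted p = 0.0313, below 1 TPM).

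Of 10 genes of the premyelinating step, 6 were above 1 TPM, 2 below and 2 not called. The shares over protein-coding genes tested were 75.7% above and 11.5% below. The median of the list was 1.6 ± 0.132 (log2(TPM + 1), SD, n = 4), below the 3.31 of the protein-coding genes tested. Sirt2, a deacetylase gene, was at 98.7 ± 10.5 TPM, the kinase gene Fyn at 52.3 ± 5.26 TPM and Rras2 at 5.78 ± 1.02 TPM, and Sirt2 and Fyn are also used by neurons. Enpp6, a choline phosphodiesterase gene switched on in newly formed oligodendrocytes, had 0, 11, 5 and 0 counts, or 0.0584 ± 0.0734 TPM (edgeR adjusted p = 0.00934, below 1 TPM).

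Of 16 myelin genes, Mbp and Mog included, 8 were above 1 TPM and 2 below. Of the others, 1 was not called and 5 had too few counts to test. The median over all 16 was 1.28 ± 0.223 (log2(TPM + 1), SD, n = 4). The median of 2.53 and the share of 65.9% above 1 TPM over all genes cover only genes with enough counts to test. They are thus not matched to a list that holds 5 untested genes. The highest were Cnp, an enzyme of myelinating cells found in other cells as well, at 24.8 ± 2.91 TPM, followed by Mog and Mbp. Opalin had no count in any library, which allows up to 3 counts per library. The rest of the 8 above 1 TPM were Cldn11 (4.5 TPM), Ugt8a (4.0 TPM), Tspan2 (3.8 TPM), Gjb1 (3.0 TPM) and Ermn (2.8 TPM). Other myelin genes, named after their values were seen, were close to absent. Mobp had 7, 0, 0 and 0 counts, Mal 0, 1, 0 and 1, and Aspa 0, 1, 0 and 0. Mag had 0, 23, 8 and 12 counts and was called below 1 TPM (edgeR adjusted p = 0.0403). Mog had at least 150 counts in every library.

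**Figure D5:**
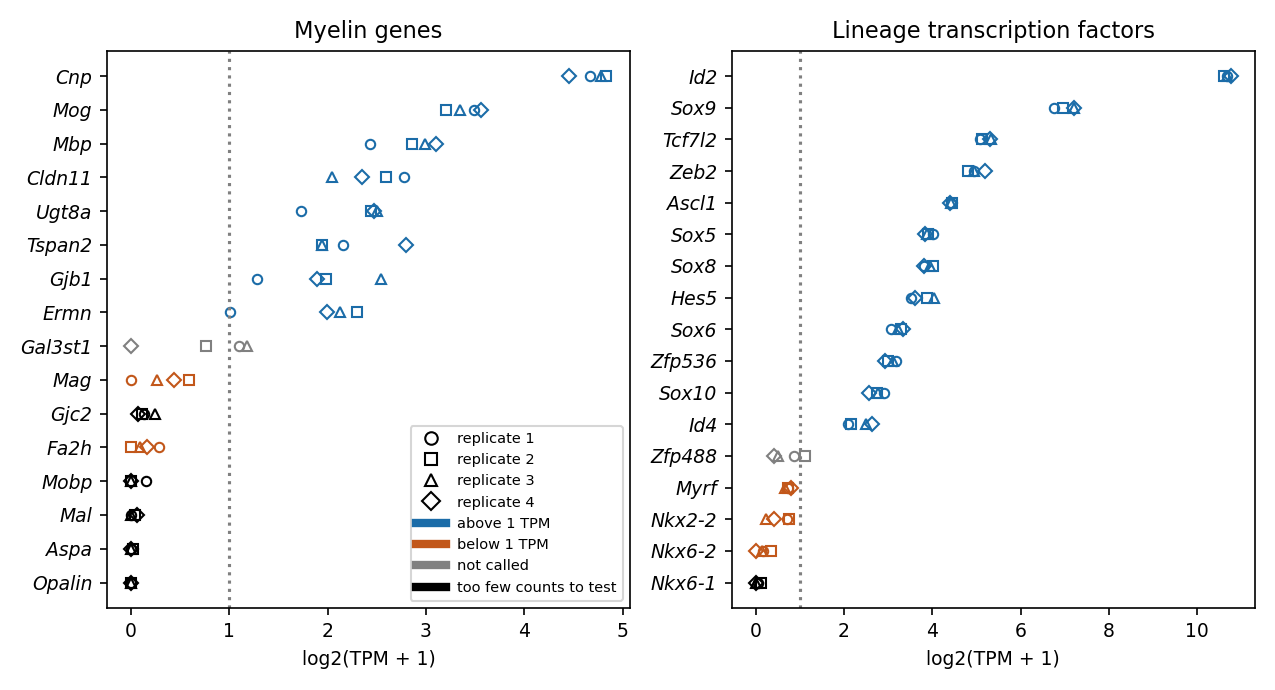
Levels of 16 myelin genes (left) and 17 lineage transcription factors (right) as log2(TPM + 1) (horizontal axis) in each library, with symbols for replicates and colours for the call against 1 TPM (dotted line). Myelin genes fall into 8 above 1 TPM and 8 that were below it, not called or not tested, and Myrf, Nkx2-2 and Nkx6-2 lie below 1 TPM.

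Several of the 9 genes are not specific to this lineage, and markers of other cells were read beside them. For the counts below, the shares over all genes tested were 65.9% above 1 TPM and 12.1% below it. Over protein-coding genes tested they were 75.7% and 11.5%. The mural and ventral lists also hold genes with too few counts to test. Cspg4 and Pdgfrb are known from the mural cells of vessels, and 2 of 8 mural cell genes were above 1 TPM (Pdgfrb, and Rgs5 at 2.39 ± 0.642 TPM), Notch3 was at 1.10 ± 0.383 TPM without a call, 2 were below with Abcc9 lowest at 0.0475 TPM, and their summed level ran from 9.47 to 12.4 TPM. Of the 8 mural genes, 3 were at 0 in at least 1 library (Kcnj8, Abcc9 and Des), and Kcnj8 had 17 and 9 counts in replicates 1 and 2. Pdgfra is known from meningeal fibroblasts, where 2 of 8 genes were above 1 TPM (Crabp2, 2.79 ± 0.933 TPM, and Lum, 1.98 ± 0.231 TPM) and 5 below, Dcn was at 1.11 ± 0.368 TPM without a call and Col3a1 lowest at 0.0523 TPM, with a summed level from 6.31 to 8.57 TPM. Olig2 is known from ventral forebrain progenitors. Of 7 ventral telencephalon genes, Dlx1 (4.32 ± 1.02 TPM) and Lhx6 (3.99 ± 0.507 TPM) were above 1 TPM and 1 was below. Dlx2 (1.41 ± 0.208 TPM) and Gsx2 (0.298 ± 0.263 TPM) were not called. Gsx1 and Nkx2-1 had too few counts to test, with 0, 0, 2 and 1 counts for Nkx2-1. The part of these cells in the levels of Cspg4, Pdgfra and Olig2 was not tested.

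As a background, 16 genes known from organs other than brain were read, and their summed level ran from 9.50 to 13.8 TPM. Gcg, which encodes glucagon, was at 5.16 ± 1.12 TPM and Pnlip, a lipase of the pancreas, at 4.38 ± 0.828 TPM, and these 2 of the 16 were called above 1 TPM. Both were above the means of Cspg4 and Bcas1. The share above 1 TPM was 65.9% over all genes tested and 75.7% over protein-coding genes tested. Of the 16, 9 had too few counts to test. The next of the 16 was the elastase gene Cela1 at 0.560 ± 0.497 TPM, 4 had no count in any library, and the median of the list was 0.0520 TPM.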

How the data were processed

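RNA was primed at the poly(A) tail and its cDNA amplified before fragmentation, per the labels' protocols. The submitters' processing notes name bcl2fastq 2.19.1, STAR 2.5.2b and the build GRCm38. These sources give no counter, strand setting or annotation. The authors deposited unnormalised whole-number counts for 45706 genes and TPM values for 15648 of them. All columns of both tables were used.

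Because the deposited TPM follows the gene span, TPM was recomputed from the counts with merged exon lengths of GENCODE M21 (GRCm38), which matched 45143 identifiers. Intervals on counts are exact Poisson 95% intervals and cover counting error only. Genes with at least 10 counts in total were tested against 1 TPM, two-sided, by the quasi-likelihood F statistic of an intercept-only edgeR 4.0.16 fit (R 4.3.3; the F was formed from the fitted deviances because glmQLFTest takes no 1-column design), with Benjamini-Hochberg adjustment over all genes at 0.05. Differences from Mbp and Mog were tested over all genes with limma 3.58.1 on log2(TPM + 1). The edgeR test was checked on simulated data, over 20991 genes with 50 set at each level. In that check, 92% of the 50 genes at 2 TPM were called above 1 TPM and 64% of the 50 at 0.5 TPM below it. The simulation of the limma test scored only genes with a large set difference, so it cannot show how often genes without a difference are called. Pairs of libraries differed by more than sampling noise (chi-square per gene from 9.83 to 26.4), so all 4 were kept as separate samples.

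Named were the 9 genes, the 3 highest and the lowest of each fixed list, and Sox10, Nkx2-2, Myrf, Pdgfa, Pdgfrb, Sox2 and Hopx; 1 further gene of the myelin list is not reported here and was left out of that list. The genes and lists were chosen with earlier results of these data known. No genes were ranked by likeness of pattern, since 4 libraries of 1 group are too few. Alternatives were other lengths, scalings, filters, levels, pseudocounts and groupings of genes, DESeq2 1.42.0, and leaving out each library.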

Additional observations from a re-analysis of the deposited data

How the results depend on the processing

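All 9 genes stayed above 1 TPM under TMM factors, DESeq2 size factors, the DESeq2 test and no count filter. They also did with a level of 2 TPM, with the longest transcript and without each library in turn. On the deposited TPM, 7 did. Lhfpl3 and Bcas1, at 0.29 and 0.58 TPM there, turned to -0.63 and -0.34, taken as log2(TPM + 1) minus its value at 1 TPM. Onset minus myelin stayed positive, between 0.60 and 0.79 without each library, and was 0.35 with the longest transcript, 1.65 on the deposited TPM and 0.32 with the mean of genes; it was -0.096 with the downstream-start length for Mbp, through the shorter length of that gene.

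Against Mbp, without length correction (counts scaled to library size alone, CPM) Olig1 was at -0.53, Olig2 at -1.40, Lhfpl3 at -0.25 and Mog at -1.52; with the longest transcript Olig2 was at -0.54 and Mog at -0.17; on the deposited TPM Cspg4 was at 1.07 and Lhfpl3 at -1.05. Against Mog, by CPM Olig2 was at 0.12, Cspg4 at 1.34 and Mbp at 1.52, with the longest transcript Mbp was at 0.17, and on the deposited TPM Olig2 was at 1.94, Cspg4 at 0.033 and Lhfpl3 at -2.09. With the longest transcript Lhfpl3 and Gpr17 were no longer called above Mbp (limma adjusted p = 0.133 and 0.191). By CPM, Gpr17 against Mbp (0.41, adjusted p = 0.0572), Cspg4 against Mbp (-0.18, adjusted p = 0.438) and Bcas1 against Mog (-0.23, adjusted p = 0.171) were not called, and on the deposited TPM Olig2 was called above Mbp (2.98, limma adjusted p = 6.36e-89). Cspg4 was not called below Mbp without replicate 2, 3 or 4 (limma adjusted p = 0.0898, 0.127 and 0.0525), Bcas1 not below Mbp without replicate 3 (adjusted p = 0.0631), and Olig2 not below Mog without replicate 1, 2 or 4 (adjusted p = 0.0676, 0.0554 and 0.0768).

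Genes below 1 TPM numbered 2532 of 20991 tested, but 6564 of 27789 with no count filter, and 5328 of 20991 were below 2 TPM. Without each library they numbered from 1525 to 1707, with 19975 to 20213 tested. Genes below Mbp numbered 10184 of 20990 tested, but 3969 of 13822 on the deposited TPM and 16946 of 27788 with no count filter. Genes below Mog numbered 12140, 6034 and 18949 of the same totals. The number of genes tested thus differs along with the setting. No paired analysis was possible because all 4 libraries form 1 group. Depth limits the genes near 0, such as Opalin, Mobp and Mal, to a statement that few or no reads were found.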
